A study of Homo sapiens with 8 samples.

Results

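The genes described here are 8 genes of PPARα signalling and fatty acid oxidation, chosen by name with earlier results of these data known: PPARA, CREB3L3, CPT1A, PDK4, ANGPTL4, PLIN2, FABP1 and CYP4A11. They are 8 of the 60230 genes in the count table. RNA of HepG2 cells that overexpress CYP3A4 was sequenced in 8 samples, with 2 replicates in each of 4 groups. HepG2 is an established human hepatocellular carcinoma line, and CYP3A4 is a major drug-metabolizing enzyme of the liver. The cells of 3 groups received compound 4, 5 or 6, plastic-related bisphenols labelled metylcresol, tetrabut and cyclohexil, for 24 h. Compounds 4 and 6 share a methylene bridge between their phenol rings and differ by a tert-butyl or a cyclohexyl substituent, and compound 5 has an ethylidene bridge and tert-butyl substituents. Controls received 0.2% DMSO. All groups carried the CYP3A4 transgene and were kept in medium with fetal bovine serum and blasticidin. Each compound was given at its own IC50, the dose that lowers viability to the midpoint of its range, so the molar doses differed and a difference between compounds is a difference at these doses. The cells are a single tumour-derived line. The labels number the replicates day 1 and day 2 beside the single exposure of 24 h, and do not say whether they were separate cultures, so the p-values measure only the spread between these samples.

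PPARα, encoded by PPARA, is a nuclear receptor that binds fatty acids and pairs with a retinoid X receptor on DNA. In the fasting liver it switches on the genes for uptake, transport and oxidation of fatty acids. CREB3L3 (also called CREBH) is a liver transcription factor that is released from the endoplasmic reticulum membrane by cleavage and shares several target genes with PPARα. CPT1A admits long-chain fatty acids into mitochondria, PDK4 turns off pyruvate dehydrogenase when fat is burned, CYP4A11 hydroxylates fatty acids at their terminal carbon, FABP1 carries fatty acids in the cytosol of hepatocytes, PLIN2 coats lipid droplets, and ANGPTL4 is a secreted inhibitor of lipoprotein lipase.

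FABP1 fell with all 3 compounds, to 0.428, 0.476 and 0.567 times its DMSO level for compounds 4, 5 and 6. PLIN2 was 1.59-fold higher with compound 5, and ANGPTL4 fell to 0.471 times its DMSO level with this compound. PPARA, CREB3L3 and CPT1A did not pass the test with any compound. PDK4 and CYP4A11 were at or below the detection limit in all 8 samples.

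The promoters of the 3 genes that passed a test in a comparison, and of CREB3L3, are shown because PPARα acts through a DNA element that can be looked for in them. Each is the 250 bases before the transcription start on GRCh38.p14 (RefSeq), in the direction of the gene. Capitals mark a match to the PPAR element, which is the hexamer AGGTCA repeated in the same direction with 1 base between the copies, with up to 2 mismatches on either strand.
FABP1, chr2:88128063-88128312, minus strand: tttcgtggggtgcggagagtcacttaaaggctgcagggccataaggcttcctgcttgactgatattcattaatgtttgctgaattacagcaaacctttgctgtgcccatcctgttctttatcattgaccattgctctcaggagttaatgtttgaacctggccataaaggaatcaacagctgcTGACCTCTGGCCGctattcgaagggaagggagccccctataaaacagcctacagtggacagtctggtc
CREB3L3, chr19:4153381-4153630, plus strand: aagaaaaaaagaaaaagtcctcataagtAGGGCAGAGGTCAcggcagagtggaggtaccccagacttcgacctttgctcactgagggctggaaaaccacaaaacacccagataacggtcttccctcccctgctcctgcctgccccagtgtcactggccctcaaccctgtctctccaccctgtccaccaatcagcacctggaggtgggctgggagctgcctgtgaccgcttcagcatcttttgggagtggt
PLIN2, chr9:19127493-19127742, minus strand: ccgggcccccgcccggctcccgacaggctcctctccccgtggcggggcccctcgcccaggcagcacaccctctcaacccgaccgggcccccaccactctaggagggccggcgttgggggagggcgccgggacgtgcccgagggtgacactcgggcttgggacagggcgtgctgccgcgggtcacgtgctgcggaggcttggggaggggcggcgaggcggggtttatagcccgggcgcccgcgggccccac
ANGPTL4, chr19:8363905-8364154, plus strand: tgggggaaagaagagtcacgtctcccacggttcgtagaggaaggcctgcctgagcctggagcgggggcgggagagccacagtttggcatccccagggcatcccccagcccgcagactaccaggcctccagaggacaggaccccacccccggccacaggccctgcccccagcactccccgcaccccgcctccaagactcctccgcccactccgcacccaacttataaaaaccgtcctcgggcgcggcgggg

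FABP1 held the element on the opposite strand from 68 to 56 bases before the start, with 2 mismatches, and CREB3L3 held it on its own strand from 222 to 210 bases before the start, with 1 mismatch. Over windows of 300 bases, from 250 before to 50 after the start, 2.97% of the 35116 promoters in the table held such a match. Counted by gene, the share was 3.63% of 27305 symbols. With the pathway lists described below added to the 8 genes, it was 9 of 104 genes with a promoter, or 8.65%, APOA5 and ACAA2 among them. Of the 8 genes, 7 had a promoter in the table, and the 5 others (PPARA, CPT1A, PDK4, ANGPTL4 and PLIN2) held no match in this window. The letters TGACGTCA, the CREB-type element, were in 1.85% of all promoters and in no promoter of the 7 genes. A match is a description of these letters, and elements farther from the start or inside genes were not searched.

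The libraries held between 9472261 and 13308975 counts on genes. Levels are given as CPM, counts scaled by TMM to a common library size, and 3 counts, the smallest amount considered detectable, corresponded to between 0.234 and 0.313 CPM (counting error only). The quasi-likelihood F-test of edgeR was applied to the 13404 genes that passed a filter on low counts, and a gene is called where its p, adjusted by Benjamini-Hochberg over all of them, was under 0.05. Of the 8 genes, 6 passed this filter. All 12 hepatocyte markers were present, ALB among them at 12500 CPM or more in every sample, and of 12 markers of leukocytes, endothelium, stroma and bile ducts, 8 did not pass the filter, with PTPRC, CD3E and COL1A2 at 0 counts. In bulk RNA, fewer cells of a type and less RNA per cell cannot be told apart.

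Among the 6 genes tested, compound 4 gave 0 higher calls and 1 lower, compound 5 gave 1 and 2, and compound 6 gave 0 and 1. Over all tested genes, compound 4 had 11.9% called (6.5% up, 5.42% down), compound 5 had 28.1% (13.9% up, 14.2% down) and compound 6 had 4.4% (2.8% up, 1.6% down). The DMSO samples did not overlap the treated ones in 4, 4 and 5 of the 6 genes with compounds 4, 5 and 6, against 54.6%, 70.1% and 52.9% of all tested genes, so separation of 2 samples from 2 was common in these data. The 3 comparisons share the DMSO samples. FABP1 was called lower with all 3 compounds, as were 175 genes or 1.31% of those tested.

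**Figure D1:**
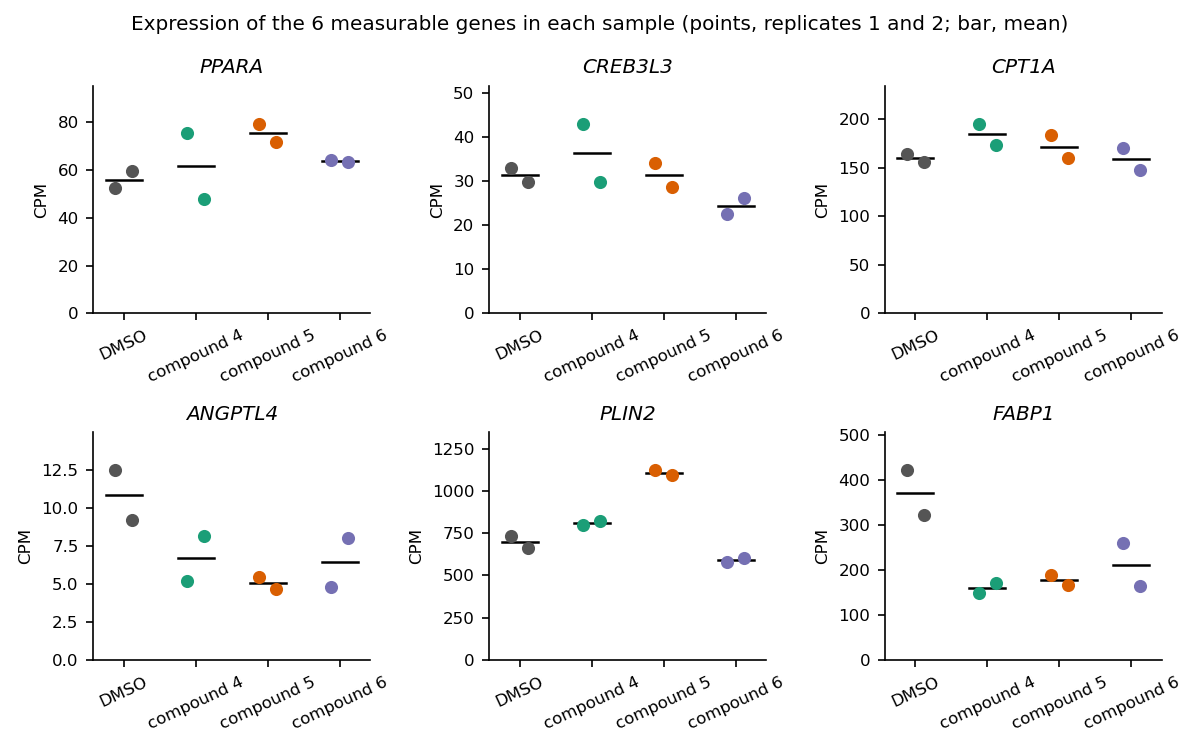
CPM (y axis, from 0) of the 6 genes that passed the filter in each of the 8 samples, by group (x axis). Points are replicates 1 and 2 and the bar is their mean. The PLIN2 samples of compound 5 lie at 1122 and 1096 CPM, above the 6 others, and the FABP1 samples of all compounds lie at or under 258 CPM, below both DMSO samples.

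Per kilobase of exon, the level in DMSO was 303 ± 20.5 CPM for PLIN2 (SD, n = 2), 191 ± 35.7 for FABP1, 27.6 ± 1.07 for CPT1A, 12 ± 0.849 for CREB3L3, 5.77 ± 1.24 for ANGPTL4 and 5.57 ± 0.518 for PPARA. The levels of ANGPTL4 and PPARA differed by less than their SD, and each other step in this order was larger than the SD of both neighbours. PLIN2 and FABP1 together stood far above the receptor. With compound 5 the level per kilobase was 482 ± 8.07 CPM for PLIN2 and 90.9 ± 8.25 CPM for FABP1.

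The receptor gene PPARA (ENSG00000186951, chr22:46150521-46243756 on GRCh38) was measured at 52.3 and 59.7 CPM (DMSO), 75.3 and 47.9 (compound 4), 79.3 and 71.8 (compound 5) and 64.3 and 63.3 (compound 6). Both samples of compounds 5 and 6 lay above both DMSO samples, whereas the compound 4 samples lay on either side of them. Compound 5 gave a log2 fold change against DMSO of 0.43 (SE 0.18, 95% interval 0.04 to 0.82, adjusted p = 0.0948), compound 4 one of 0.13 (adjusted p = 0.679) and compound 6 one of 0.19 (adjusted p = 0.622). PPARA was therefore not called. With compound 5 it was called in a fit of these 2 groups alone (0.45, adjusted p = 0.00335) and without the filter on low counts (0.46, adjusted p = 0.00657). The compound 4 value rested on replicate 1, without which it was -0.23, and without that sample PPARA was called higher with compound 5 than with compound 4 (0.66).

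CREB3L3 (ENSG00000060566, chr19:4153601-4173054) stood at 33.0 and 29.8 CPM (DMSO), 43.1 and 29.9 (compound 4), 34.2 and 28.7 (compound 5) and 22.6 and 26.3 (compound 6). The compound 6 samples were the lowest of the 8, and the other groups overlapped. Against DMSO the log2 fold change was -0.35 with compound 6 (SE 0.18, 95% interval -0.75 to 0.05, adjusted p = 0.311), 0.22 with compound 4 (adjusted p = 0.476) and 0.0018 with compound 5 (95% interval -0.39 to 0.39, adjusted p = 0.995, -0.0013 with the replicate block). Between compounds 4 and 6 the difference was 0.57 (95% interval 0.17 to 0.96, adjusted p = 0.387), and it was called without the filter (adjusted p = 0.0287). It was 0.28 without compound 4 replicate 1, the low end of a range of 0.28 to 0.81 over the 8 fits that each left out a sample. The compound 6 value against DMSO was -0.22 without its replicate 1. The compound 4 value against DMSO was -0.07 without its replicate 1.

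Of 13 receptors and partners, edgeR called 4 higher and 0 lower with compound 5, where 13.9% of all tested genes were higher. It called 0 with compounds 4 and 6, where 2 and 4 had an unadjusted p under 0.05 and DESeq2 called 0 and 1. PPARGC1A, a coactivator that drives oxidative metabolism, had 25.3 and 29.2 CPM in the DMSO samples, and compound 5 gave 52.7 and 48.8 CPM (log2 fold change 0.90, SE 0.15, adjusted p = 0.00183). It was also higher with compound 5 than with compound 4 (0.60, adjusted p = 0.0262, 0.0608 with only these 2 groups fitted) and compound 6 (0.56, adjusted p = 0.0391, 0.056 with upper-quartile scaling). Its call against compound 4 was lost without compound 4 replicate 2 (0.41) or either compound 5 sample, and that against compound 6 without any of the DMSO, compound 5 or compound 6 samples. PPARD, the receptor most widely expressed in the PPAR family, rose with compound 5 (0.82, SE 0.18, adjusted p = 0.00809), and had values of 0.51 with compound 4 (adjusted p = 0.105) and 0.69 with compound 6 (adjusted p = 0.0629). The compound 6 value of PPARD was called with DESeq2 (adjusted p = 0.04). SIRT1, a deacetylase that acts on PPARGC1A, rose by 0.52 with compound 5 (adjusted p = 0.0368), a call that was lost with upper-quartile scaling (adjusted p = 0.0629) and with library size alone (adjusted p = 0.0791). PPARG, the receptor of adipocytes, lay between 22.1 and 36.4 CPM and was not called. NCOR1, the most abundant of the list, was not called either.

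FABP1 (ENSG00000163586, chr2:88122982-88128116), whose promoter holds the element shown above, was measured at 420 and 322 CPM (DMSO), 148 and 170 (compound 4), 188 and 165 (compound 5) and 258 and 163 (compound 6). All 6 treated samples lay below both DMSO samples, and replicate 1 of compound 6 was the highest of them. The log2 fold change was -1.22 with compound 4 (SE 0.20, 95% interval -1.67 to -0.78, adjusted p = 0.00366), -1.07 with compound 5 (SE 0.20, 95% interval -1.51 to -0.63, adjusted p = 0.00332) and -0.82 with compound 6 (SE 0.20, 95% interval -1.26 to -0.38, adjusted p = 0.0448). The values with compounds 4 and 5 did not differ beyond their error (0.15, 95% interval -0.29 to 0.59), nor did those with 4 and 6 (-0.41, 95% interval -0.84 to 0.03) or 5 and 6 (-0.25, 95% interval -0.69 to 0.19). Compounds 4 and 6, which differ in their ring substituent, were thus not told apart by FABP1 at these doses. The call with compound 6 was lost without any of 5 samples (each DMSO sample, each compound 5 sample and compound 6 replicate 2), with a range of -1.16 to -0.51 over the 8 fits that each left out a sample. Its values were -0.61 without DMSO replicate 1, -1.0 without DMSO replicate 2 and -0.51 without compound 6 replicate 2.

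The summed level of the 12 hepatocyte markers was 41400 to 43300 CPM (DMSO), 32300 to 32900 CPM (compound 4), 34500 CPM in both samples (compound 5) and 33100 to 39500 CPM (compound 6). Of the 12, compound 4 gave 1 higher and 4 lower calls, compound 5 gave 0 and 4, and compound 6 gave 0 and 2. Of all tested genes, 6.5%, 13.9% and 2.8% were called higher and 5.42%, 14.2% and 1.6% lower. The summed level of the 12 markers of other cell types was 118 to 148 CPM in the DMSO samples and 167 to 231 CPM in the treated ones, most of it KRT19 and CD68. Of the 4 of these that were tested, higher and lower calls were 3 and 0, 1 and 1, and 2 and 0 with compounds 4, 5 and 6. KRT19 was higher with all compounds (0.72, 0.56 and 0.85) and CD68 with compound 4 (0.8). CD14, at 1.25 CPM or less, was higher with compounds 4 and 6 (2.94 and 2.75), and ACTA2 was lower with compound 5 (-1.2). Among the hepatocyte markers, TF and APOA1 were called lower with all compounds, and HNF4A, a factor that maintains hepatocyte expression, with none. The part of these markers in the FABP1 result was not tested.

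Of the paralogs, FABP4 and FABP6 had 0 counts, and FABP5, the epidermal form, lay between 31.7 and 54.9 CPM and fell by 0.74 with compound 5 (adjusted p = 0.00217). In the list of uptake and activation, with 13 of 15 genes tested, the higher and lower calls were 1 and 1 for compound 4, 3 and 5 for compound 5, and 2 and 1 for compound 6. Over all tested genes, 6.5%, 13.9% and 2.8% were higher and 5.42%, 14.2% and 1.6% lower. SLC27A4, a fatty acid transporter, rose with all compounds (0.59, 0.68 and 0.61 with compounds 4, 5 and 6, adjusted p = 0.0213, 0.00583 and 0.0381). DBI, which binds acyl-CoA, fell with all of them (-0.76, -1.17 and -0.69, adjusted p = 0.00878, 0.000499 and 0.0294). Without compound 6 replicate 2 the compound 6 calls were lost for SLC27A4 (0.40, adjusted p = 0.342) and DBI (-0.45, adjusted p = 0.251).

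ACSL5, an acyl-CoA synthetase, had 132 and 132 CPM in the DMSO samples. Compound 5 gave 340 and 292 CPM, and the other compounds between 152 and 190 CPM. The compound 5 samples stood apart from the rest. The log2 fold change was 1.26 with compound 5 (SE 0.13, adjusted p = 0.000176), and compound 5 exceeded compound 4 by 0.96 (adjusted p = 0.00489) and compound 6 by 0.88 (adjusted p = 0.00433). The call against compound 6 was lost without compound 5 replicate 1 (0.78, adjusted p = 0.0576). ACSL3, a synthetase found on lipid droplets, rose by 0.47 with compound 5 (adjusted p = 0.00781) and by 0.47 with compound 6 (adjusted p = 0.0327). ACSL6 fell with compound 5 (-2.11, SE 0.52, adjusted p = 0.0128) from a low level of 2.56 and 3.61 CPM in DMSO. The 8 fits without a sample gave -3.04 (without compound 5 replicate 2) to -1.57 (without compound 5 replicate 1), and the call was lost without DMSO replicate 2 (adjusted p = 0.0884) or compound 5 replicate 1 (adjusted p = 0.0961).

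**Figure D2:**
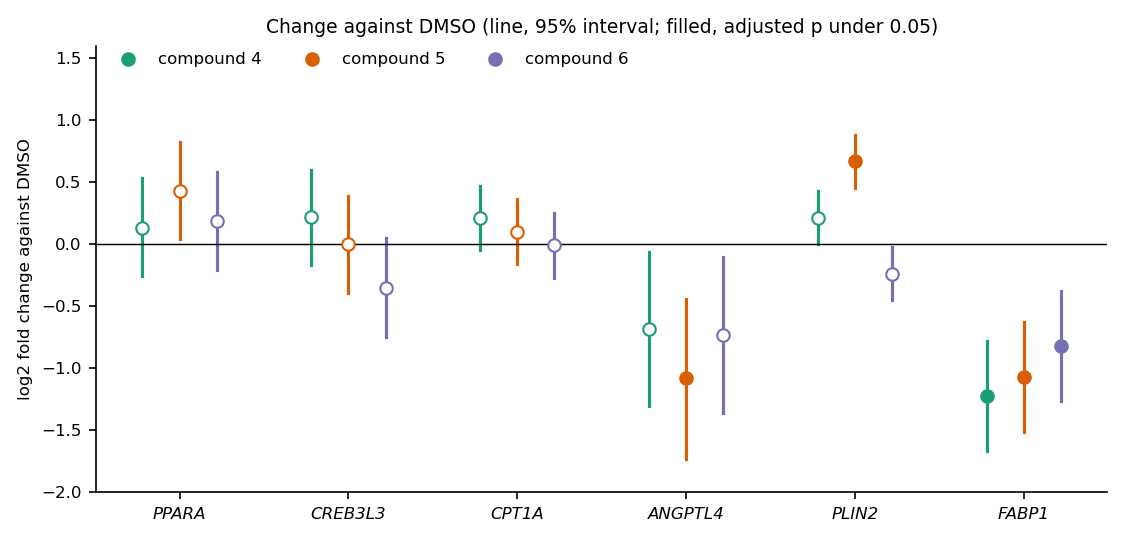
Log2 fold change against DMSO (y axis) of the 6 tested genes with compounds 4, 5 and 6. Lines are 95% intervals and filled points passed an adjusted p under 0.05. FABP1 is filled for all compounds, and PLIN2 and ANGPTL4 for compound 5 alone.

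CPT1A (ENSG00000110090, chr11:68754620-68844410), the rate-setting step of mitochondrial entry, was measured at 164 and 156 CPM (DMSO), 195 and 174 (compound 4), 183 and 160 (compound 5) and 171 and 148 (compound 6). Both compound 4 samples lay above both DMSO samples and both compound 6 samples, and the other groups overlapped. The log2 fold change was 0.21 with compound 4 (SE 0.12, 95% interval -0.05 to 0.47, adjusted p = 0.297), 0.10 with compound 5 (95% interval -0.16 to 0.36, adjusted p = 0.546) and -0.01 with compound 6 (95% interval -0.27 to 0.25, adjusted p = 0.983). The intervals leave room for changes of up to 0.47 on the log2 scale. CPT1B, the muscle form, lay between 1.32 and 4.72 CPM and was not called, with 64.08% of its 31-base words in other genes, and CPT1C had 2 counts in all 8 samples.

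Of 7 other genes of the carnitine shuttle, 3 were lower and 0 higher with compound 5, where 14.2% of all tested genes were lower. Both edgeR and DESeq2 called 0 with compounds 4 and 6, where 1 and 0 had an unadjusted p under 0.05. CPT2, which releases acyl-CoA inside the mitochondrion, fell by 0.59 (adjusted p = 0.00659). ACACB, whose product malonyl-CoA inhibits CPT1A, fell by 0.85 (adjusted p = 0.00523), and MLYCD, which degrades malonyl-CoA, fell by 0.81 (adjusted p = 0.00728). Compound 5 gave a lower CPT2 level than compound 4 (-0.50, adjusted p = 0.0295) and compound 6 (-0.49, adjusted p = 0.038), with adjusted p-values of 0.0647 and 0.0916 by DESeq2. These CPT2 calls were lost in 4 and 5 of the 8 fits that left out a sample, with values of -0.54 to -0.44 against compound 4 and -0.57 to -0.38 against compound 6, and both were lost without either compound 5 sample.

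In the mitochondrial β-oxidation list, 19 of 20 genes were tested, and 0 were called higher with any compound by edgeR or DESeq2. Compounds 4, 5 and 6 gave 2, 9 and 0 lower calls, and with compound 6, 7 were lower at an unadjusted p under 0.05 and DESeq2 called 1. Of all tested genes, 5.42%, 14.2% and 1.6% were called lower with compounds 4, 5 and 6. The median log2 fold change was -0.23, -0.40 and -0.17 in this order, beside 0.0, -0.032 and 0.003 over all tested genes. HADH, the short-chain hydroxyacyl-CoA dehydrogenase, was measured at 50.4 and 54.6 CPM (DMSO), 26.7 and 32.7 (compound 4), 25.7 and 29.8 (compound 5) and 39.6 and 36.4 (compound 6). It fell with compound 4 (-0.82, adjusted p = 0.00369) and compound 5 (-0.92, adjusted p = 0.000965), and compound 6 gave -0.47 (adjusted p = 0.0731). The compound 6 value of HADH was called by edgeR without the filter (adjusted p = 0.0294) and in a fit of compound 6 and DMSO alone (adjusted p = 0.0393). ECI2, an enoyl-CoA isomerase, fell with compound 4 (-0.47, adjusted p = 0.0343) and compound 5 (-0.70, adjusted p = 0.00271). The other 7 genes lower with compound 5 were ACADM (-0.65), DECR1 (-0.63), ACAA2 (-0.57), ACAD10 (-0.52), ECHS1 (-0.47), ACAD9 (-0.41) and HADHB (-0.40). They cover dehydrogenation, hydration and thiolysis of the acyl chain. DESeq2 did not call ACAD10 (adjusted p = 0.117) or ACAD9 (adjusted p = 0.105). The ACAD10 value was -0.34 without DMSO replicate 1 (adjusted p = 0.219).

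In the peroxisomal list, which handles very long and branched fatty acids, 18 of 19 genes were tested. Compound 4 gave 0 higher and 3 lower calls, compound 5 gave 0 and 12, and compound 6 gave 0 and 0, with 6 lower at an unadjusted p under 0.05 and 0 called by DESeq2. Over all tested genes, edgeR called 5.42%, 14.2% and 1.6% lower with compounds 4, 5 and 6. Calls by DESeq2 were 4 lower with compound 4 and 8 lower with compound 5. EHHADH, the peroxisomal bifunctional enzyme and a classic PPARα target, was measured at 24.2 and 27.0 CPM (DMSO), 13.8 and 11.5 (compound 4), 8.88 and 8.16 (compound 5) and 18.9 and 14.2 (compound 6). Every treated sample lay below both DMSO samples. It fell with compound 4 (-1.02, SE 0.17, adjusted p = 0.0038) and compound 5 (-1.59, SE 0.18, adjusted p = 0.000234), and compound 6 gave -0.64 (SE 0.17, adjusted p = 0.0571). The compound 6 value was called in a fit of these 2 groups alone (adjusted p = 0.0397) and without the filter (adjusted p = 0.00566). EHHADH was lower with compound 5 than with compound 6 (-0.95, adjusted p = 0.0114). This call was lost without compound 5 replicate 1 (adjusted p = 0.0766), compound 5 replicate 2 (0.0844) or compound 6 replicate 1 (-0.74, 0.0914). AMACR, a racemase for branched chains, and CAT, catalase, fell with compound 4 (-0.59 and -0.51) and with compound 5 (-0.98 and -0.71). Of the 31-base words of AMACR, 61.96% occur in other genes, mostly in the readthrough gene C1QTNF3-AMACR, so its counts are uncertain.

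Among 5 tested genes of ketone body metabolism, 3 were lower and 0 higher with compound 5, where 14.2% of all tested genes were lower. With compounds 4 and 6, edgeR, DESeq2 and an unadjusted p under 0.05 all gave 0. BDH1, which interconverts the ketone bodies, fell by 0.72 with compound 5 (adjusted p = 0.0142), with -0.45 (adjusted p = 0.139) without DMSO replicate 1, and SIRT3, a mitochondrial deacetylase, by 0.86 (adjusted p = 0.000925).

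**Figure D3:**
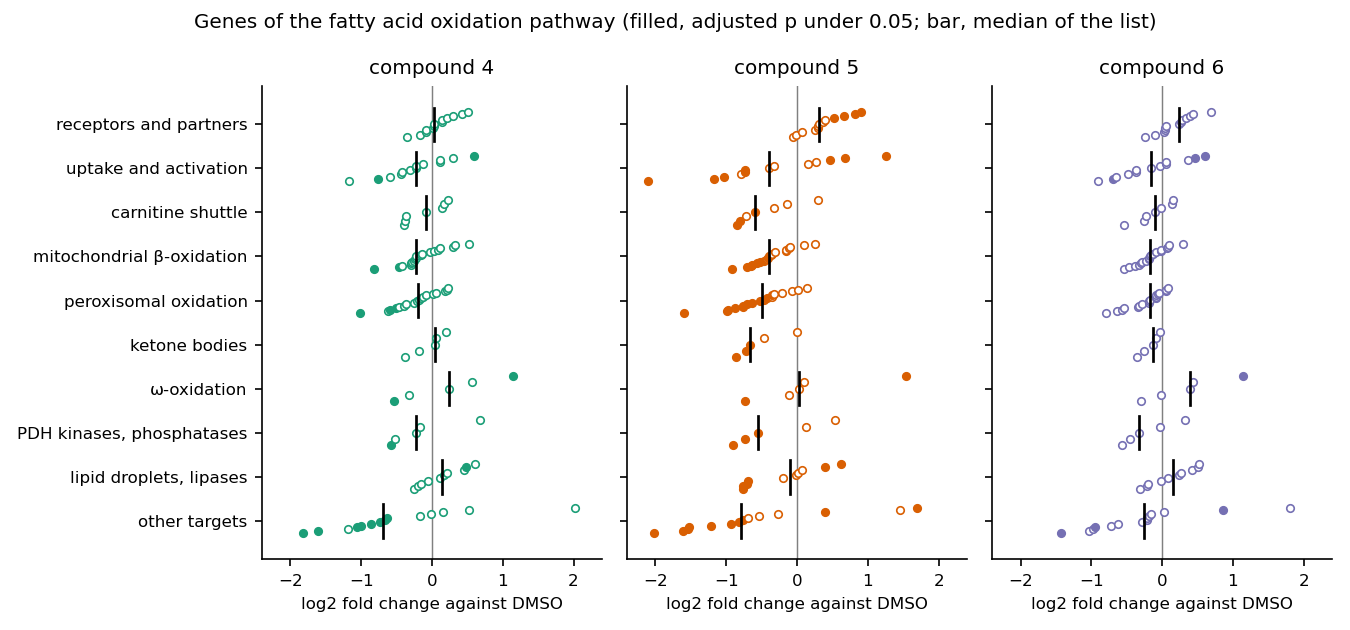
Log2 fold change against DMSO (x axis) of the tested genes in the 10 pathway lists (rows), without the 8 genes themselves, for each compound. Filled points passed an adjusted p under 0.05 and black bars are list medians. With compound 5 the mitochondrial and peroxisomal lists hold 9 and 12 filled points, all to the left of 0.

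CYP4A11 (ENSG00000187048, chr1:46929177-46941484) had 1 and 1 counts in DMSO, 0 and 2 with compound 4, and 0 in the 4 other samples. It lay below the limit of 3 counts throughout, and no fold change is given. Of its 31-base words, 52.03% occur in other genes, mostly in CYP4A22, which had 0 counts. Of the ω-oxidation list, 5 of 7 genes were tested, and the higher and lower calls were 1 and 1 for compound 4, 1 and 1 for compound 5, and 1 and 0 for compound 6. Among all tested genes, 11.9%, 28.1% and 4.4% were called with compounds 4, 5 and 6. CYP4F11, another fatty acid hydroxylase, was measured at 12.98 and 14.7 CPM (DMSO), 31.6 and 30.2 (compound 4), 44.8 and 36.2 (compound 5) and 27.6 and 33.6 (compound 6). All treated samples lay above DMSO, with log2 fold changes of 1.15 (SE 0.16, adjusted p = 0.00168), 1.54 (SE 0.16, adjusted p = 0.000157) and 1.14 (SE 0.16, adjusted p = 0.00573). ALDH3A2, a fatty aldehyde dehydrogenase, fell with compound 4 (-0.53, adjusted p = 0.00718), and CYP4V2 with compound 5 (-0.73, adjusted p = 0.0378, 0.192 with DESeq2).

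PDK4 (ENSG00000004799, chr7:95583499-95596491) had 1 count in compound 4 replicate 2 and 0 counts in the other 7 samples. At these depths a level of up to 0.234 to 0.313 CPM cannot be told from 0. The other kinases of pyruvate dehydrogenase were expressed. PDK1, at 47.5 and 53.5 CPM in the DMSO samples, fell with compound 4 (-0.58, adjusted p = 0.0175) and compound 5 (-0.55, adjusted p = 0.0119), with -0.46 for compound 6 (adjusted p = 0.0733). The compound 6 value of PDK1 was called by edgeR without the filter (adjusted p = 0.0311). PDK2 and PDK3 fell with compound 5 (-0.73 and -0.90, adjusted p = 0.0123 and 0.00376). In this list of 5 tested genes, 1, 3 and 0 were lower with compounds 4, 5 and 6 and 0 higher, by edgeR and by DESeq2, and 2 were lower with compound 6 at an unadjusted p under 0.05. Among all tested genes, edgeR called 5.42%, 14.2% and 1.6% lower.

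PLIN2 (ENSG00000147872, chr9:19108375-19149290) was measured at 732 and 665 CPM (DMSO), 799.5 and 821 (compound 4), 1122 and 1096 (compound 5) and 583 and 602 (compound 6). The groups did not overlap, in the order compound 6, DMSO, compound 4 and compound 5. The log2 fold change was 0.67 with compound 5 (SE 0.10, 95% interval 0.45 to 0.88, adjusted p = 0.000891). Compound 4 gave 0.21 (SE 0.10, adjusted p = 0.184) and compound 6 gave -0.24 (SE 0.10, adjusted p = 0.198), and neither was called. Compound 5 exceeded compound 4 by 0.45 (95% interval 0.24 to 0.67, adjusted p = 0.0168) and compound 6 by 0.90 (95% interval 0.69 to 1.12, adjusted p = 0.00114), where 13.9% and 9.91% of all tested genes were called. The call against compound 4 was lost without either compound 5 sample. Compounds 4 and 6 differed by 0.45 (95% interval 0.24 to 0.66) with an unadjusted p of 0.000726 and an adjusted p of 0.18. In that comparison edgeR called 6 genes or 0.0448% of all tested, with 9.81% at an unadjusted p under 0.05, and DESeq2 called 74 genes, PLIN2 among them (adjusted p = 0.00451), and edgeR without the filter called PLIN2 too (adjusted p = 0.0123). The tert-butyl compound 4 and the cyclohexyl compound 6 thus gave PLIN2 levels that were 1.37-fold apart, and the call depended on the tool and the filter. The other 5 genes had 0 calls between compounds by edgeR and DESeq2, and 1 of them, CREB3L3 between compounds 4 and 6, had an unadjusted p under 0.05.

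In the list of lipid droplets and lipases, 10 of 16 genes were tested, and the higher and lower calls were 1 and 0 for compound 4, 2 and 4 for compound 5, and 0 and 0 for compound 6, where 2 were higher at an unadjusted p under 0.05 and DESeq2 called 0. Among all tested genes, 6.5%, 13.9% and 2.8% were called higher and 5.42%, 14.2% and 1.6% lower. PLIN3, the ubiquitous paralog of PLIN2, was measured at 191 and 169 CPM (DMSO), 238 and 264 (compound 4), 268 and 286 (compound 5) and 206 and 223 (compound 6). It rose with compound 4 (0.48, adjusted p = 0.0165) and compound 5 (0.62, adjusted p = 0.00244), with 0.26 for compound 6 (adjusted p = 0.22). PLIN4 and PLIN5 lay under 4 CPM and were not called, and PLIN1, the adipocyte form, had 18 counts in all. PNPLA2, the main triglyceride lipase of droplets, rose with compound 5 (0.40, adjusted p = 0.0278), whereas HILPDA (-0.71), CIDEB (-0.76) and CIDEC (-0.77) fell. HILPDA inhibits PNPLA2, and the CIDE proteins promote droplet fusion and lipidation of lipoproteins. DESeq2 did not call CIDEC (adjusted p = 0.173) or HILPDA (adjusted p = 0.124), and the call of PNPLA2 was lost with upper-quartile scaling (adjusted p = 0.0759) and library size alone (adjusted p = 0.0726). The HILPDA value was -0.44 without DMSO replicate 2 (adjusted p = 0.266).

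ANGPTL4 (ENSG00000167772, chr19:8363289-8374373) was the lowest of the 6 measured genes in CPM, at 12.5 and 9.20 (DMSO), 5.21 and 8.18 (compound 4), 5.50 and 4.71 (compound 5) and 4.79 and 8.06 (compound 6). These values rest on 46 to 127 counts a sample. All treated samples lay below DMSO. The log2 fold change was -1.08 with compound 5 (SE 0.29, 95% interval -1.73 to -0.44, adjusted p = 0.019), -0.68 with compound 4 (SE 0.28, 95% interval -1.30 to -0.06, adjusted p = 0.146) and -0.73 with compound 6 (SE 0.29, 95% interval -1.36 to -0.10, adjusted p = 0.181). Without the filter on low counts it was called lower with compound 4 (adjusted p = 0.0181) and compound 6 (adjusted p = 0.0171) too. Both values moved by over 1.5 times when a sample was left out, with -1.03 (without compound 4 replicate 2) to -0.40 (without its replicate 1) for compound 4 and -1.16 (without compound 6 replicate 2) to -0.39 (without its replicate 1) for compound 6. Compound 5 and the others did not differ beyond error (-0.40 against compound 4, 95% interval -1.06 to 0.26, and -0.36 against compound 6, 95% interval -1.03 to 0.32). The call with compound 5 was lost without DMSO replicate 1, compound 5 replicate 1 or compound 5 replicate 2, and the 8 fits without a sample gave -1.27 to -0.85. ANGPTL8, which acts on the same lipase, had 33.2 and 30.3 CPM in the DMSO samples and 17.4 and 21.7 CPM in those of compound 5, a fall of 0.69 (adjusted p = 0.0306). It was lower with compound 5 than with compound 4 (-1.15, adjusted p = 0.00948) and compound 6 (-1.20, adjusted p = 0.00794). Both calls between compounds were lost without compound 5 replicate 1 (-0.98, adjusted p = 0.091, and -1.05, adjusted p = 0.086). LPL, which encodes that lipase, had 0 counts.

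Of 15 other known targets of PPARα or CREB3L3, 14 were tested, and the higher and lower calls were 0 and 8 for compound 4, 2 and 8 for compound 5, and 1 and 2 for compound 6. Over all tested genes, 6.5%, 13.9% and 2.8% were called higher and 5.42%, 14.2% and 1.6% lower. The list was not sorted by the direction in which either factor acts on a gene, so its counts do not measure their activity. APOC3, an apolipoprotein that slows triglyceride clearance, had 53.6 and 40.3 CPM in the DMSO samples and between 10.1 and 19.9 CPM with the compounds. Its log2 fold change was -1.82 (SE 0.23, adjusted p = 0.00113), -1.61 (SE 0.22, adjusted p = 0.000704) and -1.43 (SE 0.22, adjusted p = 0.0088) with compounds 4, 5 and 6. APOA5, an activator of triglyceride clearance, was measured at 86.8 and 77.5 CPM (DMSO), 34.3 and 44.3 (compound 4), 17.8 and 22.7 (compound 5) and 53.1 and 32.5 (compound 6). It fell by 1.06, 2.02 and 0.95 on the log2 scale (adjusted p = 0.00945, 0.000232 and 0.0335), and was lower with compound 5 than with compound 4 (-0.96, adjusted p = 0.0229) and compound 6 (-1.07, adjusted p = 0.0164). The APOA5 call against compound 4 was lost without compound 4 replicate 2 (-0.75, adjusted p = 0.0945) or compound 5 replicate 1 or 2 (0.154 and 0.0792), and that against compound 6 without compound 6 replicate 1 (-0.68, adjusted p = 0.113) or compound 5 replicate 1 or 2 (0.134 and 0.0583). The compound 6 value of APOA5 had an adjusted p of 0.051 with the replicate block. It was -0.62 without compound 6 replicate 2 (adjusted p = 0.299).

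UCP2, FADS1 and FADS2 fell with compound 4 (-0.86, -0.73 and -1.61) and with compound 5 (-1.53, -0.82 and -1.54). UCP2 is a mitochondrial carrier, and the FADS genes encode fatty acid desaturases. ACOT1, an acyl-CoA thioesterase, fell with compound 4 (-0.66, adjusted p = 0.023) and compound 5 (-1.21, adjusted p = 0.000657), but 66.0% of its 31-base words occur in other genes, mostly ACOT2, so its counts are uncertain. TRIB3, a stress-induced pseudokinase that is also a PPARα target, rose with compound 5 (1.69, SE 0.19, adjusted p = 0.000291) and compound 6 (0.86, SE 0.19, adjusted p = 0.0342). Without compound 6 replicate 2 the compound 6 value of TRIB3 was 0.51 (adjusted p = 0.322). FGF21, a hormone that both factors induce in fasting liver, had 12 counts in all 8 samples.

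Over the 10 lists together, without the 8 genes, 109 of 124 genes were tested. The higher and lower calls were 3 and 16 for compound 4 (17.4% called), 12 and 48 for compound 5 (55% called), and 4 and 3 for compound 6 (6.42% called). The shares called among all tested genes were 11.9%, 28.1% and 4.4%. The list median was -0.16, -0.37 and -0.10 on the log2 scale. With compound 5, 49.3% of all calls were higher, and this share was 36.6% with upper-quartile scaling and 33.3% with library size alone, under which 8 list genes were higher and 55 lower. With DESeq2 the compound 5 counts were 12 higher and 39 lower. In the direct comparisons, 9 list genes were higher and 18 lower with compound 5 than with compound 4, 4 and 19 than with compound 6, and 0 were called between compounds 4 and 6 by edgeR or DESeq2, where 11 had an unadjusted p under 0.05 and edgeR called 0.0448% of all tested genes. Several counts fell when a sample was left out. With compound 5, 30 and 32 were lower without DMSO replicate 1 or 2 and 24 and 31 without compound 5 replicate 1 or 2, and with compound 4, 5 and 3 were lower without DMSO replicate 1 or 2. With compound 6 the lower count ran from 0 without either DMSO sample or compound 6 replicate 2 to 10 without compound 4 replicate 1 or compound 6 replicate 1.

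Calls that held in all 8 of these fits numbered 1 of 3 higher and 1 of 16 lower for compound 4 (CYP4F11 and APOC3), 6 of 12 higher and 20 of 48 lower for compound 5, and 0 of 4 and 0 of 3 for compound 6. The 6 higher genes of compound 5 were PPARGC1A, SLC27A4, ACSL5, CYP4F11, PLIN3 and TRIB3. The 20 lower ones included DBI, FABP5, HADH, ECI2, EHHADH, AMACR, CAT, SIRT3, PDK3, CIDEB, ACOT1, APOA5, APOC3, FADS1, FADS2 and UCP2. Every other call against DMSO of a list gene named above was lost in at least 1 of the 8 fits.

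**Figure D4:**
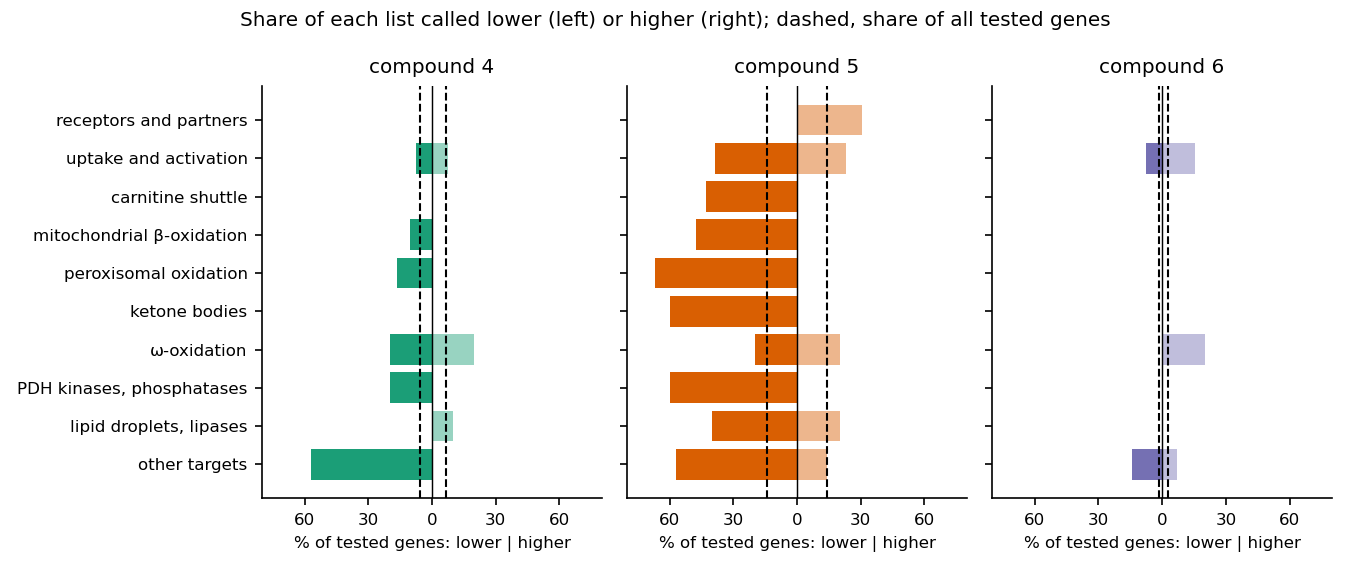
Share of tested genes in each list called lower (bars to the left) or higher (bars to the right) than DMSO, in percent (x axis), for each compound. Dashed lines give the share of all 13404 tested genes, 14.2% lower and 13.9% higher for compound 5. The compound 5 bars of the mitochondrial and peroxisomal oxidation lists reach well past the dashed line on the left.

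The genes whose log2 CPM followed each of the 6 genes most closely over the 8 samples, out of 12692 whose mean reached 1 CPM, were mostly outside the pathway. For FABP1 they were FADS2 (r = 0.985), DLD (r = 0.977) and PNRC2 (r = 0.973), and for PLIN2 they were GMPPB (r = 0.98), NIPA2 (r = 0.979) and ALAS1 (r = 0.976). FADS2 and ALAS1 belong to the list of known targets. PPARA was followed by DIAPH2 (r = 0.983), ZFHX3 and ATP11A, CREB3L3 by AMMECR1 (r = 0.955), WDR81 and CFDP1, CPT1A by AMD1 (r = 0.979), NIPAL2 and MDM2, and ANGPTL4 by FAM72A (r = 0.949), ARL15 and TOMM40L. The points share libraries and groups, and with 8 samples and this many genes high values are found for any gene, so they are given as a description. Among the 6 genes themselves r ran from -0.75 (PPARA and ANGPTL4) to 0.65 (CREB3L3 and CPT1A).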

How the data were processed

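Reads from strand-specific libraries were quantified by the authors with Salmon 1.5.0 on the GENCODE 38 transcriptome (GRCh38) and summed to genes with tximeta, per the labels and methods. The deposited table holds these estimated counts (expected counts) as whole numbers, not scaled for library size, for 60230 genes in 8 samples. By their column names, replicate 1 of compounds 4 and 5 was each merged from 2 S numbers, and the names do not say what these stand for. The compound 4 values of PPARA and CREB3L3 that rest on replicate 1 thus rest on a merged sample. Salmon shares reads between similar transcripts by estimation, so genes with near-identical copies are uncertain.

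From these counts, a single quasi-likelihood model with 4 groups was fitted in edgeR 4.0.16 (R 4.3.3) after filterByExpr and TMM scaling, and p-values were adjusted over 13404 genes (cutoff 0.05). SE is the fold change divided by the square root of F, and intervals cover 95%. The procedure was tried on simulated counts drawn independently for each sample, which cannot show how it performs on replicates that share a culture or a day. With 2 samples in each group the smallest two-sided exact permutation p is 0.333, so no such test was used.

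The 8 genes, the 10 pathway lists and the markers were chosen with earlier results of these data known. Named in the text are the 8 genes, their paralogs, the highest and lowest called gene of each list (mean of at least 1 CPM, or the most abundant gene where none was called) and the 3 most similar genes. Further called list genes, FGF21 and LPL were named after their values had been seen. A few genes that these rules name are not reported here. Gene coordinates are from GENCODE 29 on GRCh38 and promoters from RefSeq. Replicates of a group differed by more than counting noise (chi-square per degree of freedom of 5.82 to 18.4), and none was a duplicate. Correlations of the day 1 minus day 2 difference between groups ran from -0.142 to 0.269, and the numbers, given as day 1 and day 2 in the labels, were taken as a shared day, so blocked values stand beside the results whose call they change. The alternatives were DESeq2 1.42.0, RLE, upper-quartile and library-size scaling, every gene with a count (1 or more over the samples), a stricter filter (10 or more in each sample), the replicate number as a block, fits of only the 2 groups compared and 8 fits without a sample. A block with the compound 4 replicates crossed was added after seeing the data.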

Additional observations from a re-analysis of the deposited data

Results flagged for a closer look

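The effect of a compound on PLIN2 differed between compounds by a direct test in edgeR. PLIN2 was higher with compound 5 than with compound 4 (log2 difference 0.45, adjusted p = 0.0168) and than with compound 6 (log2 difference 0.90, adjusted p = 0.00114), with both compound 5 samples above both samples of each other group. The call against compound 4 was lost when either compound 5 sample was left out, with values of 0.43 to 0.48 over the 8 fits. Each compound was given at its own IC50, so compound and molar dose cannot be told apart.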

How the results depend on the processing

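The 6 tested genes kept their direction and calls against DMSO under the scalings, filters, fits and tools tried, apart from the values that follow, whose cause was not tested. Without the filter on low counts, ANGPTL4 with compounds 4 and 6 (-0.68 and -0.72) and PPARA with compound 5 (0.46) were called, and PPARA with compound 5 was also called in a fit of the 2 groups compared (0.45). Uncalled values near 0 changed sign: CREB3L3 with compound 5 by upper-quartile scaling (-0.08) and by library size alone (-0.10), CPT1A with compound 5 by library size alone (-0.0026), and CPT1A with compound 6 with 10 or more counts in each sample (0.01). With the replicate block CREB3L3 with compound 5 was -0.0013, and no call of the 6 genes changed. Among the list genes and markers recomputed and named here, the calls against DMSO that the block ended were those of SCP2 with compound 5 (adjusted p = 0.0556), CPS1 with compound 4 (0.0628) and APOA5 with compound 6 (0.051). Library size alone shifted the median of all genes with compound 5 by -0.105, and no other scaling shifted a median by over 0.1.

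The 8 fits without a sample assume that the lone sample of a group varies like the other groups. Leaving out a sample gave ranges of -0.23 to 0.44 for PPARA with compound 4, -0.07 to 0.47 for CREB3L3 with compound 4, 0.34 to 0.55 for PPARA with compound 5 (called without either compound 4 sample), -0.10 to 0.12 for CREB3L3 with compound 5, -1.27 to -0.85 for ANGPTL4 with compound 5, -0.09 to 0.10 for CPT1A with compound 6 and -1.16 to -0.51 for FABP1 with compound 6. Between compounds, sign changes gave -0.45 to 0.07 for CREB3L3 and compound 5 against 4, -0.67 to 0.10 for ANGPTL4 and -0.53 to 0.11 for FABP1 and compound 5 against 6, and -0.41 to 0.24 for PPARA and -0.33 to 0.49 for ANGPTL4 and compound 4 against 6.

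Genes called in all were 1598, 3763 and 590 with compounds 4, 5 and 6, and 335 to 1703, 1680 to 4519 and 1 to 1096 when a sample was left out. Between compounds they were 1869 (5 against 4), 1329 (5 against 6) and 6 (4 against 6), and 111 to 2709, 143 to 1875 and 0 to 117 without a sample. The fewest with compounds 4 and 6 came without DMSO replicate 2, and with compound 5 without compound 5 replicate 1. With no filter compound 6 had 1441, 5 against 4 had 2812, 5 against 6 had 2117 and 4 against 6 had 294. In fits of 2 groups, 5 against 4 had 897 and 4 against 6 had 2, a block with compound 4 crossed, chosen after seeing the data, gave 2 for 4 against 6, and DESeq2 gave 74. Of the pathway genes, with no filter 6 were higher with compound 4, and 7 higher and 13 lower with compound 6. The compound 6 lower count was 5 with library size alone, 5 with 10 or more counts in each sample and 7 with 2 groups. Without a sample, higher and lower counts were 1 to 5 and 3 to 17 with compound 4, 8 to 15 and 24 to 52 with compound 5, and 0 to 6 and 0 to 10 with compound 6.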
